A study of Nicotiana tabacum with 2 samples.

Results

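Wide shared regions were accessible regions of at least 800 bp in tobacco callus cultured with 0.1 mg/L naphthaleneacetic acid (NAA) that overlapped a region called at 0.5 mg/L NAA by at least 1 bp. They were selected on measured values, namely their width in the 0.1 mg/L list and their overlap with the 0.5 mg/L list, so both properties are descriptions and not findings. On the 19 chromosomes of the Niben261 assembly of Nicotiana benthamiana, 566 regions met the rule, out of 38543 regions of the 0.1 mg/L list on chromosomes and 39523 in the whole list. The 0.5 mg/L list held 31830 regions, of which 31253 lay on chromosomes.

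Accessibility was measured by ATAC-seq, which reads out where the transposase Tn5 can insert sequencing adapters, to learn whether auxin concentration changes how open the chromatin of callus cells is. The groups were 1 library of callus on medium with 0.5 mg/L NAA, whose label gives 3 weeks of culture, and 1 library of callus on medium with 0.1 mg/L NAA, whose label gives 2 weeks. The study describes pooled explants and 2 weeks of culture for both concentrations, which conflicts with the 3-week label. If the labels hold, concentration and culture time cannot be told apart. The organism label is Nicotiana tabacum, although the plants grown in the study were N. benthamiana, and the labels describe formaldehyde fixation and sonication beside the Tn5 step. The labels mention neither genotype nor transformation for either library. With no replicates there was no test between concentrations, and all intervals cover counting error over regions only.

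In most plant tissues, Tn5 enters DNA mainly where nucleosomes are missing or loosely held, such as promoters and other regulatory DNA, and a peak caller joins neighbouring positions of high fragment pileup into 1 region. A wide region can therefore be 1 broad opening or several close ones that were joined. NAA is a synthetic auxin that keeps explant cells dividing as callus, a tissue without organised organs. Gene features and base sequences at these regions were not analysed here.

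The libraries differed in depth as far as the lists show it. The genome-wide background pileup, the mean number of fragments over a base, was 0.172 fragments at 0.5 mg/L and 0.747 fragments at 0.1 mg/L, and the narrowest region was 150 bp wide in the 0.5 mg/L list, against 207 bp in the other. Widths, covers and pileups are set beside each other here with that difference in place, and its part in them was not tested.

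The rule itself fixes how the members relate to the lists. Of the 730 chromosome regions of at least 800 bp at 0.1 mg/L, 566 met a 0.5 mg/L region (77.5%, exact 95% interval 74.3 to 80.5%). Over all chromosome regions of the 0.1 mg/L list it was 40.4%. Because the rule used this overlap, nothing is read from that share. The members made up 1.47% of the chromosome list but 3.84% of its summed width, 0.535 Mb in all. Their median width was 906 bp (quartiles 845 and 999 bp), and the widest spanned 1855 bp. Their median 0.1 mg/L summit pileup was 16 fragments, whereas the 164 wide regions with no overlap had 11 fragments and a median width of 886 bp.

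The members just inside the width limit and the shared regions just outside it had close values in some measures and unlike values in another. The 34 members of 800 to under 810 bp had a median of 41.3% of their width covered by 0.5 mg/L regions, and 3 of them were overlapped by 2 such regions. Among the 47 shared regions of 790 to under 800 bp, the median cover was 39.1%, and again 3 were overlapped by 2. Both sets had a median 0.1 mg/L summit pileup of 15 fragments. The 0.1 mg/L summit lay at a median of 53.9% of the width from the left end in these 34 members, against 35.95% in the regions just outside. These 2 medians rest on few regions and carry no interval. Over the whole classes the median was 46.9% in members (quartiles 25.3 and 68.9%). At 400 to under 800 bp it was 47.8% (quartiles 29.8 and 66.6%).

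Wide shared regions lay on every chromosome. Their number ran between 19 on chromosome 11 and 39 on chromosome 1, with a median of 31 and a density of 0.193 per Mb over the spanned 2936 Mb. As a share of all shared regions they made up 3.63% over the genome, and between 2.58% on chromosome 19 and 4.86% on chromosome 18. The interval of each of the 19 chromosomes included the overall share, so no chromosome stood apart beyond counting error. Along the chromosomes, 24.2% (20.7 to 28.0%) lay in the outermost 10% at either end of the span, against 22.4% of all shared regions, and 17.8% lay in the central 20%, against 19.1%.

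**Figure D1:**
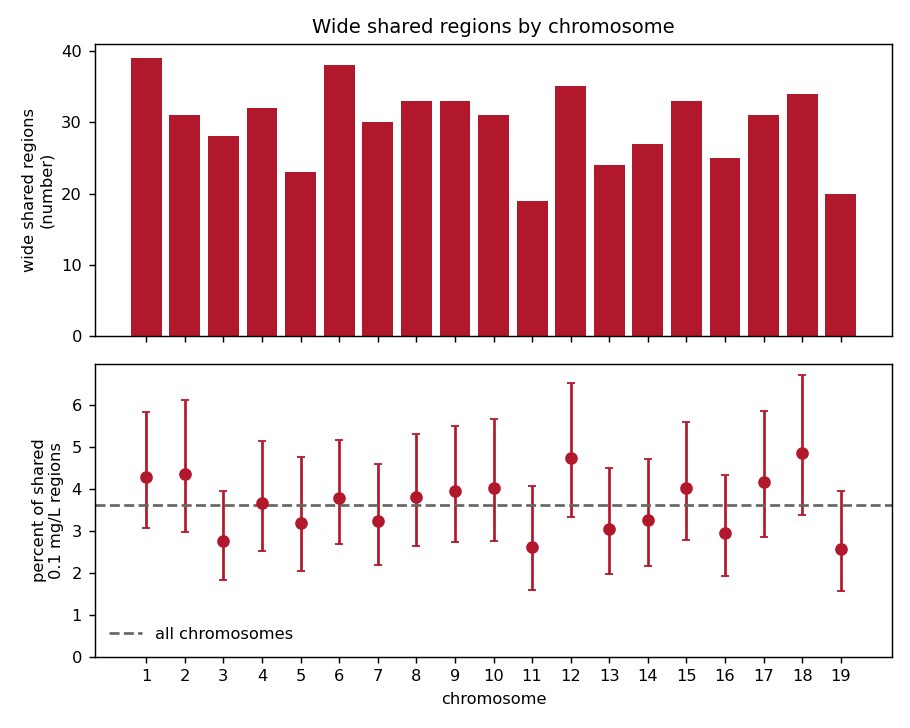
Number of wide shared regions on each chromosome (upper panel) and their percent of all shared 0.1 mg/L regions there (lower panel, bars are exact 95% intervals, dashed line is all chromosomes together). Numbers lie between 19 and 39, and every interval includes 3.63%.

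Most members had no other member within 100 kb. Another member lay within 100 kb of 41 of them (7.24%, interval 5.25 to 9.70%), against 6.11% of shared regions of 400 to under 800 bp and 4.99% of shared regions under 400 bp. The median distance to the nearest other 0.1 mg/L region was 16610 bp, against 18472 bp for shared regions of 400 to under 800 bp and 18933 bp for those under 400 bp. A further 0.1 mg/L region lay within 10 kb of 32.3% of the members (28.5 to 36.4%), against 30.2% and 31.0% in these 2 narrower classes, so neighbourhood at this distance did not differ beyond the interval. With q-values under 1e-05 in both lists the share of members was 19.02%. That setting also removes possible neighbours from the list, and the narrower classes were not counted under it. At 1 kb the order was the other way. Of the members, 15 (2.65%, interval 1.49 to 4.33%) had another 0.1 mg/L region that close, against 5.13% and 6.39% of the narrower classes. No other 0.1 mg/L region lay within 100 kb of 33 members (5.83%), against 6.19% and 6.65% of the narrower classes.

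The 41 members with a close neighbour formed 20 runs, of which 19 held 2 members and 1 held 3. The run of 3 lay on chromosome 17 at 26883314 to 26994355, where regions of 858, 990 and 802 bp spread over 111 kb. Their highest summit pileups at 0.5 mg/L were 10, 6 and 10 fragments, against 21, 17 and 21 fragments at 0.1 mg/L. The 0.5 mg/L regions covered 31.1%, 41.4% and 31.7% of the 3 widths. The middle region had the lowest pileup in both libraries and the highest cover. The tightest pair also lay on chromosome 17, at 89290740 to 89301049, where regions of 887 and 1319 bp were separated by 8104 bp, the shortest distance between any 2 members. In the narrower of the pair the summits reached 8 fragments at 0.5 mg/L and 12 fragments at 0.1 mg/L. In the wider one they reached 27 fragments at 0.5 mg/L and 23 fragments at 0.1 mg/L. These neighbours thus differed in which library had the higher raw pileup. On chromosome 19 at 56775884 to 56787728, regions of 1085 and 1333 bp had pileups of 21 and 10 fragments at 0.5 mg/L, against 16 and 23 fragments at 0.1 mg/L. The order of the raw pileups again differed between neighbours. Raw pileups are not scaled for depth, and the genome-wide background was 0.172 fragments at 0.5 mg/L and 0.747 fragments at 0.1 mg/L. The order is therefore not a comparison of accessibility between the libraries.

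Inside most members there was 1 region at 0.5 mg/L. Of the 566 members, 490 (86.6%) were overlapped by exactly 1 and 76 (13.4%, interval 10.7 to 16.5%) by 2, which together came to 642 regions at 0.5 mg/L. None was overlapped by 3 or more, for which the exact upper bound is a share of 0.650%. The share with 2 was 0.976% over all shared regions, 1.22% (74 of 6060) at 400 to under 800 bp and 0.0223% (2 of 8952) under 400 bp. A wider region has more room for a second partner, and these shares are not corrected for that. Within 500 bp on either side of the 0.1 mg/L summit, the mean number of 0.5 mg/L summits was 0.965 for members, against 1.00 in both narrower classes, a level near 1 that the overlap asked for by the rule largely sets. In that same window 19 members (3.36%, interval 2.03 to 5.19%) had 2 or more such summits, against 1.24% at 400 to under 800 bp and 0.503% under 400 bp. The share of members with 2 partners fell to 7.61% with q-values under 1e-05 in both lists, and to 6.86% with only 0.5 mg/L regions of at least 207 bp.

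Among the members the share with 2 partners went up with width. It was 7.75% (21 of 271) at 800 to under 900 bp, 14.9% (23 of 154) at 900 to under 1000 bp, 19.4% (21 of 108) at 1000 to under 1200 bp and 33.3% (11 of 33) at 1200 bp or more. The intervals of the first and last of these bands, 4.86 to 11.6% and 18.0 to 51.8%, did not overlap. Strength was not level between the width classes, since the median 0.1 mg/L summit pileup was 16 fragments in members, 15 fragments at 400 to under 800 bp and 13 fragments under 400 bp. Within bands of pileup, chosen after the values were seen, 9.52% of the 42 members under 10 fragments had 2 partners, against 0.712% of the regions of 400 to under 800 bp. At 25 fragments or more it was 17.6% of 85 members, against 0.479%. The part of strength and of room in these shares was not tested.

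The 0.5 mg/L regions covered less than 50% of the typical member. The median cover was 43.2% of the width (quartiles 28.9 and 60.4%), against 55.7% for shared regions of 400 to under 800 bp and 75.5% for those under 400 bp. The width that divides these percents is also the width that chose the members and set the classes. Its part in the order of the classes was not tested. In bases the order was reversed, with a median of 403.5 bp covered in members, against 290 bp and 212 bp. Of the summed width of all members, 45.9% was covered, against 57.0% and 72.1%. Cover was under 25% in 96 members (16.96%) and at least 75% in 63 (11.1%), and 6 (1.06%) were covered whole. Over all shared regions these shares, in this order, were 4.74%, 39.6% and 9.67%.

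**Figure D2:**
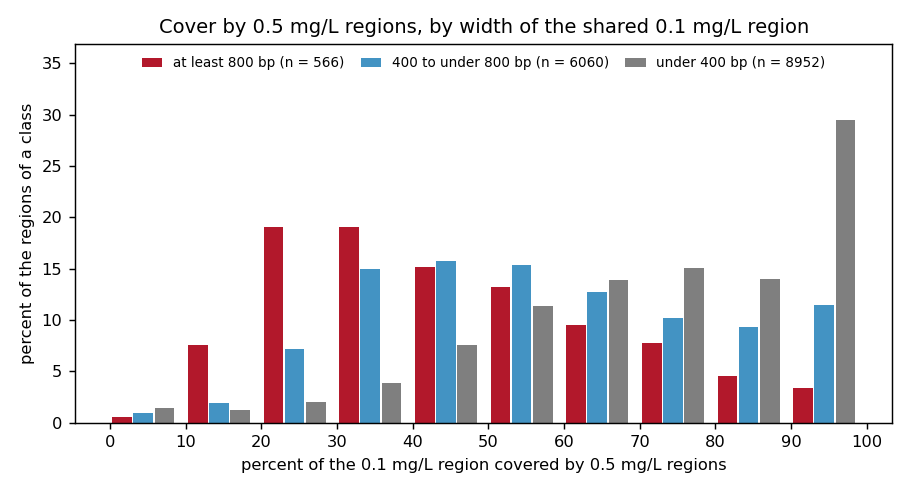
Percent of the width of shared 0.1 mg/L regions covered by 0.5 mg/L regions (horizontal axis, steps of 10) for 3 width classes, with the percent of each class on the vertical axis. Members of at least 800 bp gather below 50%, with a median of 43.2%, whereas regions under 400 bp pile up near full cover. The classes are set by the same width that divides these percents.

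Where the uncovered width lay differed with the number of partners. Of the 289.4 kb of member width outside any 0.5 mg/L region, 44.0% lay left of the first one, 46.4% right of the last one and 9.61% in gaps between 2 of them. Members with 1 partner, which have no inner gap by construction, had 48.9% left and 51.1% right of it. In the 76 members with 2 partners, 74.6% of the 37.3 kb uncovered lay in the gap, 11.3% to the left and 14.1% to the right. Both ends were uncovered over more than 100 bp in 185 members (32.7%), against 8.86% of regions of 400 to under 800 bp and 0.0447% under 400 bp. A wider region has more room for 2 such ends, and these shares are not corrected for that. In the 490 members with a single partner, that partner lay entirely inside in 358 (73.1%, interval 68.9 to 76.9%). The single partner reached past the left end in 63, past the right end in 65 and past both in 4. Over all 566 members, at least 1 partner lay entirely inside in 75.3%. This was so in 53.9% at 400 to under 800 bp and 29.3% under 400 bp. Room inside a region grows with the width that sets these classes. The partner's midpoint fell in the middle of 3 equal stretches in 49.6% of these members (45.1 to 54.1%), in the first in 26.5% and in the last in 23.9%. The counts for left and right lay within each other's counting error.

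Cover was higher where the 0.1 mg/L summit was stronger. Among members under 10 fragments the median cover was 29.0%, at 10 to 14 fragments 35.4%, at 15 to 24 fragments 46.4% and at 25 or more 64.7%. The narrower classes showed the same order, and in each band the members had the lowest cover. At 25 fragments or more, for example, it was 64.7% in members, against 77.3% at 400 to under 800 bp and 90.7% under 400 bp. Here too the percent is taken over the width that sets the classes, and the part of that was not tested. Across the 566 members Spearman's rho of pileup with cover was 0.44, and that of width with cover was -0.10. These values describe regions of the same pair of libraries, which share their depth, and carry no p-value.

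The 76 members with a pair of partners were wider than the rest, and the partners stood well apart. Their median width was 977 bp, against 897.5 bp for members with 1 partner. The summits of the pair were a median of 645 bp apart (quartiles 548 and 815 bp, range 328 to 1153 bp). The gap between the paired regions had a median of 333 bp (quartiles 245 and 436 bp, range 153 to 988 bp). Each of the paired regions was narrow, with a median of 269 bp, and both lay entirely inside the member in 23 cases. The pair was unequal in strength to a limited extent, with a median ratio of the higher to the lower pileup of 1.37 and a highest ratio of 2.83. The 0.1 mg/L summit lay inside a 0.5 mg/L region in 67 of the 76. In the 71 pairs of unequal pileup it was nearer to the stronger 0.5 mg/L summit in 39 (54.9%, interval 42.7 to 66.8%), an interval that includes 50%.

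**Figure D3:**
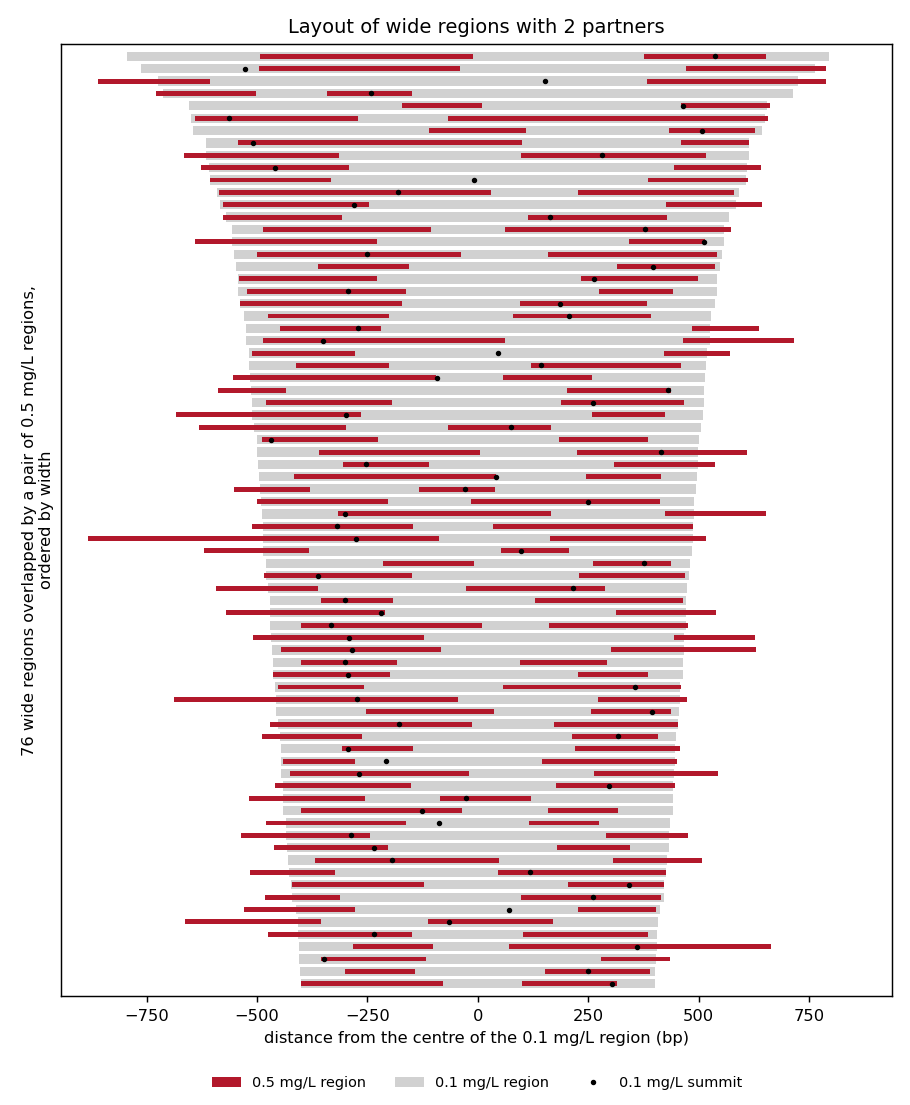
The 76 members overlapped by a pair of 0.5 mg/L regions, ordered by width from the narrowest at the bottom, with distance from the centre of the 0.1 mg/L region in bp on the horizontal axis. Dark bars are 0.5 mg/L regions, pale bars 0.1 mg/L regions and points 0.1 mg/L summits. In 67 of 76 the point lies on a dark bar, and the dark bars are a median of 333 bp apart.

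How far apart neighbouring regions stay separate differed between the lists. The smallest gap between neighbours was 151 bp in the 0.5 mg/L list and 208 bp in the 0.1 mg/L list, 1 bp more than the narrowest region of each. Of the 76 pairs, 15 were separated by no more than 207 bp, a distance at which the 0.1 mg/L list holds no separate regions. The part of the unlike joining distances in the counts of partners was not tested beyond merging the 0.5 mg/L regions at gaps up to 207 bp, which left 10.8% of members with 2.

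The wide members with a pair of partners show this layout in single regions. On chromosome 6 at 120127878 to 120129467, the second widest member spanned 1590 bp. It held 0.5 mg/L regions of 483 bp and 275 bp, with pileups of 17 and 16 fragments and a gap of 387 bp, against a 0.1 mg/L pileup of 30 fragments. Its 0.1 mg/L summit lay 24 bp from that of the right-hand region. The pair was nearly equal in height although the 0.1 mg/L list gives 1 summit only.

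On chromosome 3 at 92961186 to 92962710, the 1525 bp member held regions with pileups of 8 and 19 fragments at 0.5 mg/L, against 17 fragments at 0.1 mg/L. The 0.1 mg/L summit lay 87 bp from the weaker of the pair and 1086 bp from the stronger. Here the highest point was thus at opposite ends of the region in the libraries. On chromosome 9 at 4751398 to 4752845, a member of 1448 bp had regions of 4 and 3 fragments at 0.5 mg/L near its ends, against 8 fragments at 0.1 mg/L. The gap between that pair was 988 bp, the longest of all, and the 0.1 mg/L summit lay inside it. Counts this low fix neither heights nor widths closely.

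On chromosome 2 at 3791244 to 3792670, the member of 1427 bp held regions of 227 bp and 193 bp at 0.5 mg/L, both in its left part, and 862 bp to their right were uncovered. Their pileups were 7 and 6 fragments, against 20 fragments at 0.1 mg/L. On chromosome 10 at 15296607 to 15297915, the member of 1309 bp held regions with pileups of 12 and 8 fragments at 0.5 mg/L, against 20 fragments at 0.1 mg/L. The 0.1 mg/L summit lay 75 bp from the weaker of the pair. In all 5 of these regions the 0.1 mg/L summit was nearer to the weaker of the pair, though on chromosomes 2, 6 and 9 the pair differed by 1 fragment only.

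The least covered members touched the 0.5 mg/L list only at an edge or in a narrow stretch. On chromosome 4 at 14213244 to 14214056, 30 bp of 813 bp (3.69%) were covered, and the 0.5 mg/L summit lay outside the member. The summits had 4 fragments at 0.5 mg/L, against 14 fragments at 0.1 mg/L. On chromosome 7 at 127179034 to 127180063, 83 bp (8.06%) of 1030 bp at the right end were covered, with pileups of 5 fragments at 0.5 mg/L and 8 fragments at 0.1 mg/L. On chromosome 4 at 177810174 to 177810992, 78 bp (9.52%) were covered, with pileups of 5 fragments at 0.5 mg/L and 11 fragments at 0.1 mg/L. In all 3 the 0.5 mg/L region reached past the end of the member.

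The other 2 of the least covered were unlike each other. On chromosome 17 at 40598750 to 40599571, 13.4% was covered, again at the right end, but there the summits lay 6 bp apart and had 8 fragments in both libraries. On chromosome 5 at 125006106 to 125007402, a single 163 bp region lay inside the 1297 bp member and covered 12.6%, with pileups of 6 fragments at 0.5 mg/L and 15 fragments at 0.1 mg/L. The widest member on chromosome 11, at 56287163 to 56288571, resembled it. A region of 238 bp inside covered 16.9% of its 1409 bp, with pileups of 7 fragments at 0.5 mg/L and 10 fragments at 0.1 mg/L. In the whole class, the 96 members covered under 25% had median pileups of 7 fragments at 0.5 mg/L and 14 fragments at 0.1 mg/L.

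Some places were wide at both concentrations. The 0.5 mg/L list held 65 chromosome regions of at least 800 bp. A member was overlapped by 41 of them (63.1%, interval 50.2 to 74.7%), only narrower 0.1 mg/L regions were met by 21, and 3 met none. Seen from the members, 41 (7.24%) had a partner that wide, and 266 (47.0%) had one of at least 400 bp. In 56 (9.89%) the widest partner was narrower than 207 bp, the narrowest region of the 0.1 mg/L list. Over all shared regions the same shares, in this order, were 0.411%, 17.9% and 23.8%. In the 41 that were wide in both, the median cover was 87.1%, against 40.3% in the rest, and median pileups were 16 fragments at 0.5 mg/L and 21 fragments at 0.1 mg/L. A cover this high is in part set by the width of the partner. On chromosome 1, which held the most members, the widest one, at 68559703 to 68561048, was of this kind. A single 1135 bp region covered 84.3% of its 1346 bp, the summits lay 6 bp apart, and the pileups were 19 fragments at 0.5 mg/L and 25 fragments at 0.1 mg/L.

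The 0.1 mg/L summit was less central in wide members than in narrower shared regions, and also in wide regions that were not shared. When each width was divided into 3 equal stretches, the middle one held the summit in 38.3% of members (34.3 to 42.5%), against 45.6% at 400 to under 800 bp and 49.2% under 400 bp. An even spread along the width would give 33.3%. The first stretch held it in 34.1% and the last in 27.6%, and the first was also ahead of the last in both narrower classes (29.5% against 24.9%, and 28.6% against 22.3%). The outermost 20% at either end held the summit in 31.8% of members (28.0 to 35.8%), against 23.3% and 16.0%. The 164 wide regions without a 0.5 mg/L partner had the summit in the middle stretch in 35.98% (28.6 to 43.8%) and in the outermost 20% in 39.0% (31.5 to 46.9%), so this position was not particular to the shared ones.

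**Figure D4:**
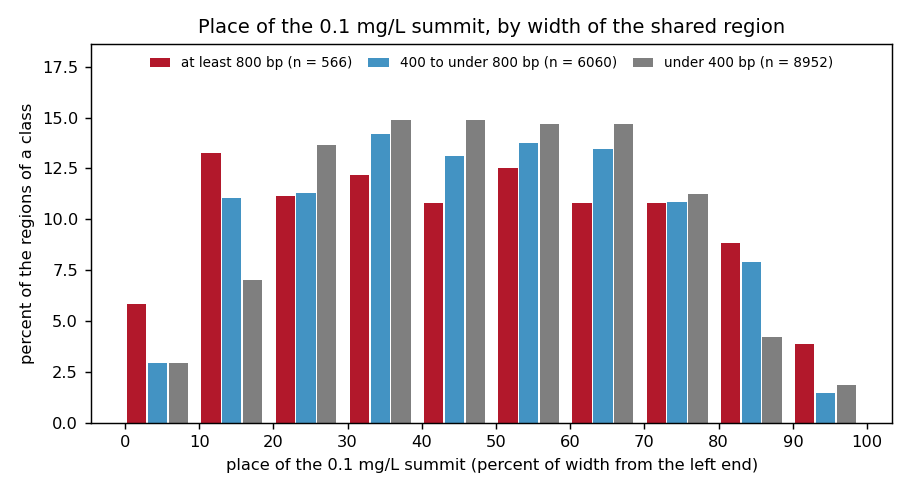
Position of the 0.1 mg/L summit in percent of the region's width from the left end (horizontal axis, steps of 10) for shared regions of 3 width classes, with the percent of each class on the vertical axis. Members of at least 800 bp have a flatter spread and more summits near the ends, with 31.8% in the outermost 20% at either end.

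The summits of the libraries often lay close together all the same. The 0.1 mg/L summit fell inside a 0.5 mg/L region in 446 members (78.8%, interval 75.2 to 82.1%), against 83.6% and 87.6% of the narrower classes. The nearest 0.5 mg/L summit inside the member was a median of 82 bp away (quartiles 29 and 210 bp, n = 557), against 61 bp and 45 bp. These distances are limited by the width that sets the classes, and reached at most 937 bp, 653 bp and 342 bp. They are not scaled to width. Regions without a 0.5 mg/L summit inside are left out, which were 4.44% and 9.015% of the narrower classes. The nearest 0.5 mg/L summit was within 100 bp in 311 members (54.95%) and more than 400 bp away in 59 (10.4%). It was absent in 9 (1.59%), whose partner had its summit beyond the end. Over all shared regions these shares, in this order, were 70.5%, 0.918% and 6.965%. In the 120 members whose 0.1 mg/L summit lay outside every 0.5 mg/L region, the signal was weaker. Their median pileups were 8 fragments at 0.5 mg/L and 13 fragments at 0.1 mg/L, whereas the other 446 had 12 fragments at 0.5 mg/L and 18 fragments at 0.1 mg/L. Cover followed the same order, with medians of 29.8% and 47.7%.

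Summit heights in members went together across the libraries. The highest 0.5 mg/L pileup per member had a median of 11 fragments (quartiles 8 and 15), and the 0.1 mg/L pileup had a median of 16 fragments (quartiles 13 and 21). Per member the 0.5 mg/L pileup was a median of 66.7% of the 0.1 mg/L pileup, against 66.7% at 400 to under 800 bp and 70.6% under 400 bp. Members did not stand apart from narrower shared regions in this ratio, which also contains the difference in depth. Spearman's rho between the pileups over the 566 members was 0.72. Width itself had a rho of only 0.13 with the 0.1 mg/L pileup, so the widest members were not in general the tallest.

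**Figure D5:**
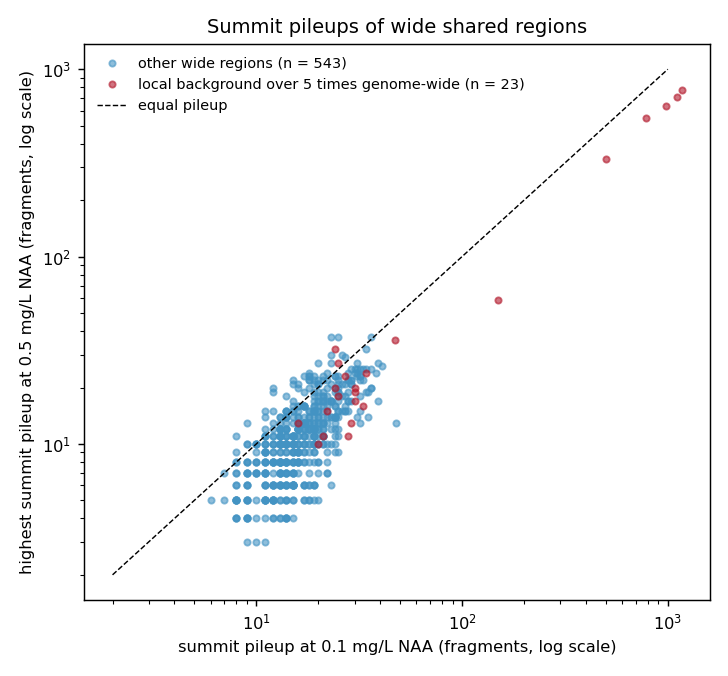
Highest summit pileup at 0.5 mg/L (vertical axis, fragments, log scale) against summit pileup at 0.1 mg/L (horizontal axis, fragments, log scale) for the 566 members. Dark points are the 23 members whose local background at 0.1 mg/L was over 5 times the genome-wide level, and the 5 farthest out reach 330 to 778 fragments at 0.5 mg/L, below the line of equal pileup.

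Very high pileups came with very high local background in the solved values. The solved local background at 0.1 mg/L exceeded 5 times the genome-wide level in 1.91% of shared regions of 400 to under 800 bp. Under 400 bp it did so in 1.497%. Among members it did so in 23 (4.06%, interval 2.59 to 6.04%). Their median cover was 74.1%, against 42.3% in the other 543, and 7 of them (30.4%) had 2 partners, against 12.7%. The part of the background in these values was not tested. No control library is given in the sources. Whether tall and wide regions raised their own local background was not tested either. Without these 23, the median cover of 42.3% and the share with 2 partners of 12.7% were close to those of all members.

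All 5 members with the highest −log10 q-value in the 0.1 mg/L list belonged to these 23. The first, on chromosome 17 at 30903302 to 30904121, had summit pileups of 709 fragments at 0.5 mg/L and 1111 fragments at 0.1 mg/L, over local backgrounds of 32.5 and 64.8 fragments. Its 820 bp were covered whole by a region of 832 bp, and the summits fell on the same base. The second, on chromosome 6 at 44712836 to 44713796, had 639 fragments at 0.5 mg/L and 977 fragments at 0.1 mg/L, with 97.2% of its 961 bp covered. Its summits also coincided. Such agreement in both edges and summits was not typical of the members.

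The third was the widest of all members, on chromosome 3 at 37466232 to 37468086. Its pileups were 778 fragments at 0.5 mg/L and 1172 fragments at 0.1 mg/L over backgrounds of 106.9 and 203.1 fragments, of which the second was the highest background at 0.1 mg/L of any chromosome region. The overlapping region at 0.5 mg/L spanned 1862 bp, the widest of its list on chromosomes, and covered all 1855 bp. The fourth, on chromosome 17 at 62417798 to 62419069, had 330 fragments at 0.5 mg/L and 499 fragments at 0.1 mg/L, with its 1272 bp covered whole and summits 2 bp apart. The fifth, on chromosome 4 at 168210407 to 168211313, was the only one of the 5 with 2 partners. Its pileups at 0.5 mg/L were 549 and 463 fragments, against 782 fragments at 0.1 mg/L, and the gap between the pair was 184 bp.

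Regions at 0.5 mg/L just beyond the ends were counted for members only, so the share has no comparison with narrower regions. A 0.5 mg/L region that did not overlap the member but lay within 1 kb of it was found at 21 of 566 (3.71%, interval 2.31 to 5.62%). No 0.5 mg/L region overlapped a member and another 0.1 mg/L region at once. The largest q-value of a member in the 0.1 mg/L list was 0.00675. The partners reached closer to the caller's threshold, with a lowest −log10 q-value of 1.36 among the 642 regions at 0.5 mg/L.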

How the data were processed

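Per the labels and the study, paired-end reads were trimmed and mapped by the authors on the N. benthamiana genome with BWA (Trimmomatic 0.39 for trimming, from the submitters' processing notes), and regions were called in each library separately with MACS2 2.2.7.1. No control library, duplicate handling, Tn5 offset or caller mode is given in the sources used here. The deposited fold is the ratio of summit pileup to local background, each with a pseudocount of 1. The deposited −log10 p and −log10 q values are a Poisson tail at the summit and its adjusted form. The deposited score is a rescaled −log10 q and was not used further.

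Fold and −log10 p were solved together for the whole-number summit pileup and the local background. This succeeded for 100% of both lists at a tolerance of 0.006, widened in proportion to −log10 p where that was large. The solver was tested on simulated data, which did not reach down to the lowest pileups of the 0.5 mg/L list. The lists hold no read totals, so these pileups are the only record of depth. A region counted as shared at 1 bp of overlap. The comparison classes were shared regions of 400 to under 800 bp and those under 400 bp. Cover is the percent of a region's bases inside 0.5 mg/L regions. Distances between regions were counted as the bases between them. Shares carry exact Clopper-Pearson and mean counts exact Poisson 95% intervals. With 1 library per concentration no test was made. Samples were grouped by the concentration in their titles.

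Regions were named by rule: the 6 widest, the 5 with the highest −log10 q at 0.1 mg/L, the 5 with the most 0.5 mg/L regions (ties by width), the 5 least covered, the 3 largest runs within 100 kb (ties by span) and the widest on the chromosomes with the most and the fewest. The members and lists were chosen with earlier results of these data known. The alternatives were other widths, stricter q-values, other overlap rules, merging and a minimum width at 0.5 mg/L, and merging at gaps up to 207 bp was added after the data had been seen. Python 3.11.15, pandas 2.3.3, numpy 2.4.6, scipy 1.17.1 and matplotlib 3.10.9 were used. Coordinates are counted from 1 on Niben261, and scaffolds were left out.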

Additional observations from a re-analysis of the deposited data

Results flagged for a closer look

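Unplaced scaffolds lay outside the comparisons of the report, yet they held 34 regions of at least 800 bp at 0.1 mg/L that overlapped a 0.5 mg/L region, out of 46 wide regions among 980 on scaffolds. Each of the 34 stood on a scaffold of its own. A pair of 0.5 mg/L regions overlapped 4 of them, and the median cover was 47.7% (range 13.2 to 100%). Their 0.1 mg/L summit pileups ran between 7 and 7653 fragments with a median of 21, and in 7 the local background was over 5 times the genome-wide level.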

How the results depend on the processing

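No paired analysis was possible because a concentration is represented by a single library. Of 88 recomputed values (8 results under 11 alternatives), 71 stayed close to the reported value, within its interval or, for the number of members, within 1.5 times, and 17 moved. With a width of at least 700 bp there were 1126 members, 9.24% of them with 2 partners and 11.9% with another member within 100 kb. With a width of at least 1000 bp there were 141, with 22.7% having 2 partners, a median cover of 35.6%, 34.0% with a central summit, 37.6% with another 0.1 mg/L region within 10 kb and 1.42% with a member within 100 kb. With q-values under 1e-05 in both lists there were 368, with 7.61% having 2 partners, a median cover of 48.1%, a median summit distance of 68 bp, 19.02% with a region within 10 kb and 4.89% with a member within 100 kb. With q-values under 0.001, 26.2% had a region within 10 kb. With only 0.5 mg/L regions of at least 207 bp, 6.86% had 2 partners. These alternatives change which regions are counted, and any further cause was not tested. Merging regions at 100 bp changed nothing, since neither list has gaps that small. Those values were fixed in advance and are among the 71. Merging at 0.5 mg/L also cannot change the number of members, the place of the 0.1 mg/L summit or the 0.1 mg/L neighbours. Depth limits the weak regions: with summits of 3 to 8 fragments, edges and heights at 0.5 mg/L are known only roughly.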
